A study of Mus musculus with 23 samples.

Results

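The output and feedback arm of the circadian clock was followed through 10 genes in the mouse hippocampus: Dbp, Tef, Hlf, Per1, Per2, Per3, Ciart, Bhlhe41, Nr1d1 and Nr1d2. The list of 10, out of 19733 genes in the expression table, was chosen by measured values, because Dbp and Ciart were lower in alcohol-fed mice of this experiment. The alcohol against control values of the 10 genes are therefore given as a description with no test. All 10 were found in the table by gene symbol, and all 10 were above a mean of 0.1 FPKM (fragments scaled by transcript length and library depth), the level set for testing, as were 15986 genes in all.

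The circadian clock is a feedback loop of transcription. CLOCK and BMAL1 bind E-boxes and switch on the Period and Cryptochrome genes, whose proteins return to the nucleus and repress CLOCK and BMAL1. E-boxes also drive Dbp, Ciart and the REV-ERB genes, so the transcripts of these genes rise and fall over the day in most tissues, the hippocampus included. DBP, TEF and HLF then bind D-boxes in other genes and pass the rhythm on.

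Male wild-type C57BL/6J mice acquired at 6 weeks of age were compared in 3 groups, each on liquid diet and daily gavage for 16 weeks. The 9 Ctrl mice received a control AIN93M diet and the gavage vehicle, sodium carboxymethyl cellulose. The 7 EtOH mice received the ethanol diet and the vehicle, and the 7 EtOH-UA mice received the ethanol diet and urolithin A (UA), a gut metabolite of ellagic acid, at 200 mg/kg/day in the vehicle. The sources used here do not give the time of day at which each hippocampus was taken, so a rhythmic gene was seen at 1 unstated point of its cycle in each mouse, and an earlier or later phase and a lower or higher amplitude cannot be told apart. In bulk tissue, fewer cells of a type and less RNA per cell cannot be told apart either.

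Summed FPKM was between 327896 and 404609 per mouse. EtOH-UA mice 137 and 141 stood apart with 404609 and 379518, against at most 366930 in any other mouse, and with slopes of log2 expression on log2 transcript length (the length slope) of -0.21 and -0.11, against -0.09 or higher in the others. The 8 markers of hippocampal neurons were all expressed and summed to between 1784 and 2407 FPKM. Markers of the choroid plexus, which produces cerebrospinal fluid, varied most, from a sum of 7.75 to 7807 FPKM. Of 6 markers of the suprachiasmatic nucleus, the brain's central clock, Six6 was at most 0.03 FPKM and Avp at most 0.68 FPKM in any mouse, while Vip, which interneurons of the hippocampus also express, was between 8.83 and 19.83 FPKM and made up most of the list's sum of 11.05 to 21.23 FPKM.

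The promoters of the genes are shown because the E-box and the D-box are the letters through which the clock is known to reach them. RefSeq gave promoter windows on GRCm38.p6 for 9 of the 10 genes, 11 windows in all, and the 250 bases before each annotated start were searched on both strands for the E-box CACGTG, its variant CACGTT, the D-boxes TTATGTAA and TTACGTAA, the cAMP response element TGACGTCA and the REV-ERB and ROR elements TAGGTCA and TGGGTCA. Ciart held 3 E-boxes, at 116, 58 and 44 bases before the start, while 6.02% of 32851 promoters held at least 1 and 0.0609% held 3 or more. Per3 held the D-box TTATGTAA at 205 and 158 bases before the start, and 0.819% of all promoters held it once or more and 0.0183% at least 2 times. Single E-boxes stood in Bhlhe41, in the first of the Per1 starts and in both Tef starts. Some windows overlap annotated exons, with all 250 bases of the first Tef window, 159 of that of Dbp and 138 of that of Bhlhe41. The E-box of the first Tef start thus lies within an exon. The cAMP response element, held by 1.55% of promoters, lay 9 bases before the start of Hlf, and CACGTT, held by 3.85%, lay on the opposite strand 28 bases before that of Nr1d1. None of the letters was found in the windows of Dbp, Nr1d2 and the second Per1 start, and TTACGTAA (0.113% of promoters), TAGGTCA (2.23%) and TGGGTCA (3.24%) were in no member's window; this says only that these letters are not in these windows. The windows of 5 starts follow, read 5′ to 3′ on the gene's strand up to the first annotated exon, with the matches in capitals. They are Ciart, chr3:95882252-95882478, minus strand; Per3, chr4:151044666-151044915, minus strand; Per1, first start, chr11:69098699-69098947, plus strand; Bhlhe41, chr6:145865559-145865670, minus strand; and Tef, second start, chr15:81811164-81811413, plus strand.
Ciart: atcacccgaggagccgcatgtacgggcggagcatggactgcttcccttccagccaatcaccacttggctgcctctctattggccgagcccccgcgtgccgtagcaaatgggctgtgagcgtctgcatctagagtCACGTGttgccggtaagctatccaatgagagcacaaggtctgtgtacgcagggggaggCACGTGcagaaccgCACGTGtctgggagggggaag
Per3: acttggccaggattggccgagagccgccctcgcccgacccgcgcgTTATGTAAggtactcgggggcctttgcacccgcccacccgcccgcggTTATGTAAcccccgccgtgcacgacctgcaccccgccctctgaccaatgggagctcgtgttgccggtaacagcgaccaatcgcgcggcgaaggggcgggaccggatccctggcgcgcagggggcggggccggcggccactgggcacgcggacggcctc
Per1: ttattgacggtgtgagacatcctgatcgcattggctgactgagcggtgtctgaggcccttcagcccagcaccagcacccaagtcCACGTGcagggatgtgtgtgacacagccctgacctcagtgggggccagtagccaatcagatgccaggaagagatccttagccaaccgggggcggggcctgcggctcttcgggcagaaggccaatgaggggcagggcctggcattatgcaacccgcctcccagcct
Bhlhe41: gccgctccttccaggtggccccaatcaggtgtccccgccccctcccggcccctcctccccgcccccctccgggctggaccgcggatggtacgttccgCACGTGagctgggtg
Tef: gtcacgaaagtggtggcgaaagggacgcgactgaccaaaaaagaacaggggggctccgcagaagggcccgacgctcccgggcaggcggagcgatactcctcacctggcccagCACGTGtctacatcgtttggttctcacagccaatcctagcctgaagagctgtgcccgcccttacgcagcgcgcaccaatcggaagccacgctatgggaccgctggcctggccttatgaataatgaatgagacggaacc

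**Figure D1:**
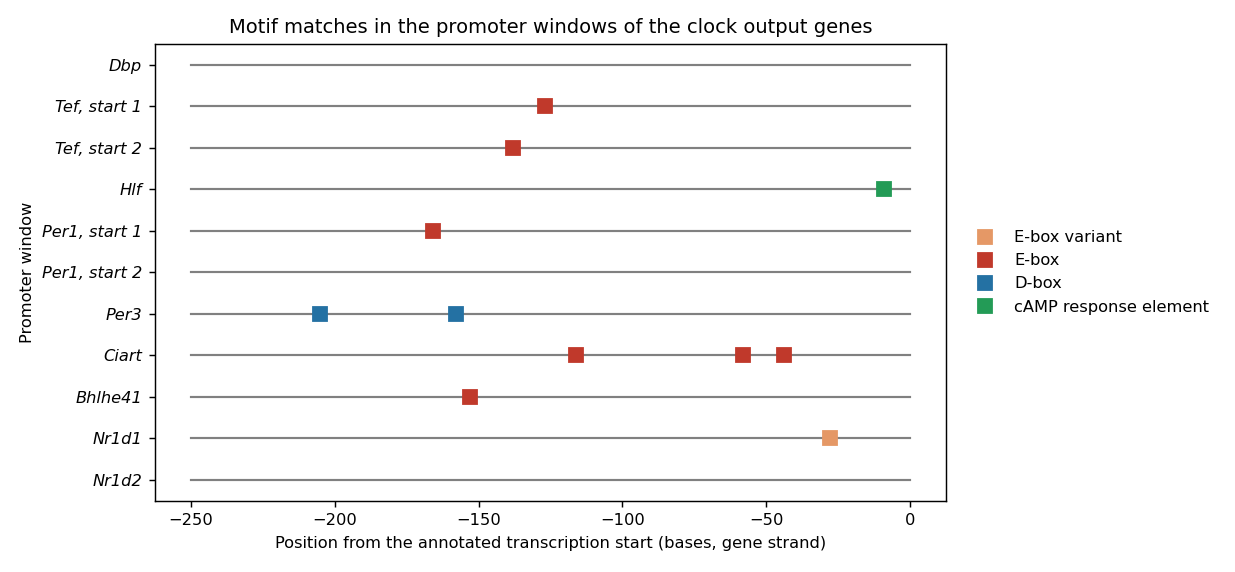
Motif matches in the 250 bases before each annotated start of 9 clock output genes, by position of the first base of the match on the gene's strand in bases from the start. The 3 E-boxes of Ciart lie within 116 bases of the start, the 2 D-boxes of Per3 lie at 205 and 158 bases, and the windows of Dbp, Nr1d2 and the second Per1 start hold no match.

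Among the 10 genes Tef had the highest level, with a mean of 96.9 FPKM over the 23 mice. Hlf at 31.7, Dbp at 30.5, Nr1d2 at 29.8 and Nr1d1 at 29.1 FPKM lay closer to each other than the spread between mice. Per1 followed at 14.2 FPKM. Per3 at 9.11, Ciart at 8.13, Bhlhe41 at 8.05 and Per2 at 6.98 FPKM formed the lowest set, and the ranges of neighbours within it overlapped. FPKM is scaled by transcript length, so these levels can be set beside each other.

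Dbp, at GRCm38 chromosome 7, 45705100 to 45710203, encodes the D-box binding protein and is one of the most rhythmic transcripts known. Its FPKM was lowest, median and highest at 28.8, 33.4 and 37.4 in Ctrl mice, at 24.7, 28.3 and 30.6 in EtOH mice and at 26.9, 28.4 and 35.6 in EtOH-UA mice. The EtOH mice lay low, with all 7 below the Ctrl median, and overlapped the Ctrl range at its lower end. EtOH-UA mice also lay low except for mouse 141, whose 35.6 FPKM was among the Ctrl values. Mean FPKM was 33.4 ± 3.06 (SD, n = 9) among Ctrl mice, 27.7 ± 1.98 (n = 7) among EtOH mice and 29.5 ± 3.03 (n = 7) among EtOH-UA mice. The EtOH mean differed from the Ctrl mean by -17.1%, or -0.27 on the scale of log2(FPKM + 0.1), with a standard error of 0.06.

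Tef and Hlf, the other PAR bZIP factors, differed less between groups. Tef was at 89.9, 99.4 and 107.6 FPKM (lowest, median, highest) among Ctrl mice, at 88.3, 94.2 and 104.1 among EtOH mice and at 91.5, 95.02 and 101.14 among EtOH-UA mice. Hlf was at 23.8, 31.8 and 39.1 FPKM among Ctrl mice, at 23.9, 29.9 and 36.2 among EtOH mice and at 26.1, 30.3 and 40.8 among EtOH-UA mice. The 3 groups overlapped over most of their ranges for both genes. The EtOH minus Ctrl log2 differences were -0.06 ± 0.04 (SE) for Tef and -0.12 ± 0.10 for Hlf.

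**Figure D2:**
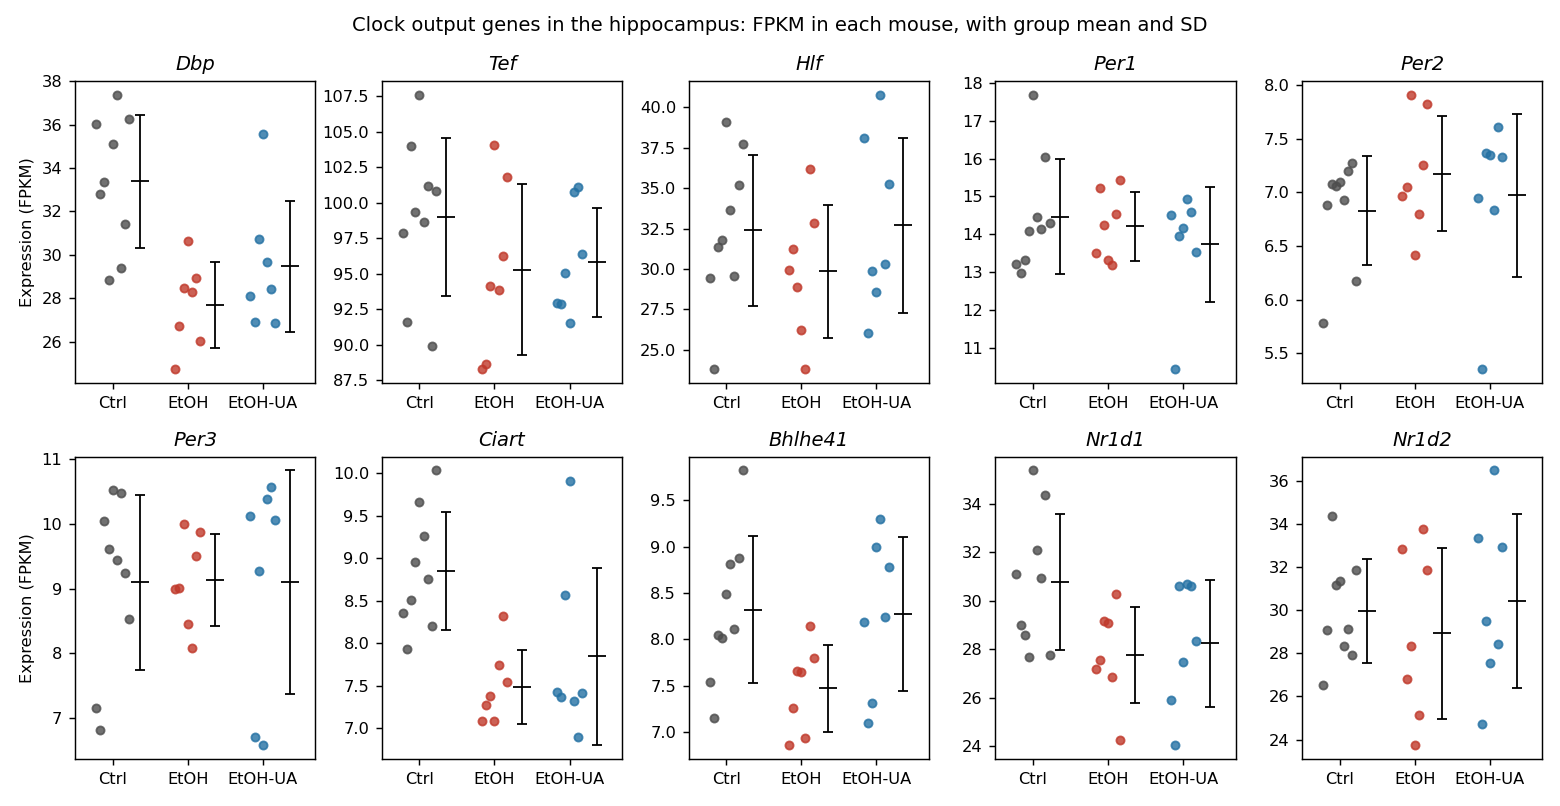
FPKM of the 10 clock output genes in each of 9 Ctrl, 7 EtOH and 7 EtOH-UA mice (points), with the group mean and SD (bars); axes are linear and do not start at 0. All 7 EtOH mice lie below the Ctrl median for Dbp, Ciart and Nr1d1, and EtOH-UA mouse 137 lies alone at the bottom for Per1 and Per2.

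Ciart, also called Chrono, at chromosome 3, 95878500 to 95882257, encodes a repressor of CLOCK and BMAL1. It was at 7.93, 8.76 and 10.03 FPKM among Ctrl mice, at 7.09, 7.38 and 8.32 among EtOH mice and at 6.9, 7.42 and 9.91 among EtOH-UA mice. Again all 7 EtOH mice were below the Ctrl median, and EtOH-UA mouse 141 was the highest of its group. Means were 8.85 ± 0.695 (SD, n = 9), 7.49 ± 0.435 (n = 7) and 7.85 ± 1.04 (n = 7) FPKM, and the EtOH mean differed from Ctrl by -15.4% (log2 -0.24 ± 0.07 SE). Ciart is short and low, and an estimated 267 fragments per mouse gave a counting error of 6.12%. This is close to the 5.81% spread of the EtOH mice, while the spread was 7.86% among Ctrl and 13.3% among EtOH-UA mice. Bhlhe41 (DEC2), which also represses at E-boxes, lies at chromosome 6, 145858243 to 145865420. It was at 7.15, 8.11 and 9.82 FPKM among Ctrl mice, at 6.86, 7.65 and 8.14 among EtOH mice and at 7.1, 8.24 and 9.3 among EtOH-UA mice. Of 7 EtOH mice, 6 lay below the Ctrl median of Bhlhe41, and the EtOH minus Ctrl log2 difference was -0.15 ± 0.07 (SE).

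The Period genes encode the proteins that close the main loop, and their group means lay close together. Per1 was at 12.98, 14.15 and 17.68 FPKM among Ctrl mice, at 13.2, 14.25 and 15.44 among EtOH mice and at 10.44, 14.17 and 14.94 among EtOH-UA mice. Per2 was at 5.78, 7.06 and 7.27 FPKM among Ctrl mice, at 6.42, 7.05 and 7.91 among EtOH mice and at 5.35, 7.33 and 7.61 among EtOH-UA mice. In both genes the lowest value of all was that of EtOH-UA mouse 137, which stood away from its group. Per3 was at 6.82, 9.45 and 10.53 FPKM among Ctrl mice, at 8.08, 9.01 and 10 among EtOH mice and at 6.58, 10.06 and 10.58 among EtOH-UA mice. Low Per3 values came from single mice of 2 groups, Ctrl mice 138 and 135 and EtOH-UA mice 141 and 137, and the medians were close. The EtOH minus Ctrl log2 differences were -0.02 ± 0.07 (SE) for Per1, 0.07 ± 0.07 for Per2 and 0.02 ± 0.11 for Per3. The sign for Per3 was not stable, with -0.14 when markers of the ependyma, the lining of the ventricles, were a covariate, -0.04 with the length slope and -0.03 with log2 Ttr, a choroid plexus marker. It was also below 0, at -0.03 or closer to 0, without Ctrl mouse 135 or 138 or without EtOH mouse 183 or 195, and that of Per1 was 0.015 without Ctrl mouse 199.

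Nr1d1 and Nr1d2 encode REV-ERBα and REV-ERBβ, nuclear receptors that repress Bmal1. Nr1d1, at chromosome 11, 98767932 to 98775377, was at 27.7, 30.95 and 35.36 FPKM among Ctrl mice, at 24.26, 27.54 and 30.27 among EtOH mice and at 24.05, 28.34 and 30.69 among EtOH-UA mice. All 7 EtOH mice and all 7 EtOH-UA mice were below the Ctrl median of Nr1d1, although the ranges overlapped. Its mean was 30.8 ± 2.79 (SD, n = 9) FPKM among Ctrl mice, 27.8 ± 1.98 (n = 7) among EtOH mice and 28.2 ± 2.61 (n = 7) among EtOH-UA mice, an EtOH minus Ctrl log2 difference of -0.15 ± 0.06 (SE). Nr1d2 was at 26.51, 29.12 and 34.38 FPKM among Ctrl mice, at 23.74, 28.34 and 33.77 among EtOH mice and at 24.72, 29.52 and 36.48 among EtOH-UA mice. Nr1d2 had a smaller difference, -0.06 ± 0.08, and a range wider in both alcohol groups than in Ctrl mice.

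In the EtOH against Ctrl comparison that chose the list, 8 of the 10 genes were lower, against 51.4% of all genes tested, and the median log2 difference was -0.09, against -0.003 over all genes. Since this contrast chose the genes, nothing is read from that count. With limma and Benjamini-Hochberg adjustment over 15986 genes no gene (0%) passed an adjusted p of 0.05 in this comparison, the smallest adjusted p was 0.310, and 487 genes, or 3.05%, had an unadjusted p under 0.05.

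The EtOH-UA against EtOH comparison asked whether UA moved the genes in alcohol-fed mice, and none of the 10 passed the test as fitted. Dbp differed by 0.09 (95% interval -0.05 to 0.23, adjusted p = 0.900 by limma, exact permutation p = 0.218, two-sided over 3432 splits of the mice), and 4 of 7 EtOH-UA mice were above the EtOH median. Ciart differed by 0.06 (-0.09 to 0.20, adjusted p = 0.907, exact permutation p = 0.491). Bhlhe41 had the smallest p, with 8.27 ± 0.830 (SD, n = 7) against 7.47 ± 0.470 FPKM and a log2 difference of 0.14 (-0.00 to 0.28, unadjusted p = 0.0535, adjusted p = 0.900, exact permutation p = 0.0554). Without EtOH-UA mice 137 and 141 its difference was 0.16 (unadjusted p = 0.0371 by limma), and the unadjusted p was also under 0.05 when EtOH-UA mouse 137 (0.0161) or 139 (0.0251), EtOH mouse 192 (0.0352) or Ctrl mouse 138 (0.0446) or 203 (0.0405) was left out. With the length slope as a covariate, added after seeing the data, the difference was 0.16 for Nr1d2 (unadjusted p = 0.0157 by limma, against 0.07 and 0.401 without it) and 0.15 for Bhlhe41 (unadjusted p = 0.0391). As fitted, the differences of the other members lay between -0.05 for Per1 and 0.13 for Hlf, with exact permutation p-values from 0.299 to 0.824. In this comparison 3 of the 10 were lower, against 48.8% of all genes, and 0 of the 10 had an unadjusted p under 0.05 in limma, against 3.27% of all genes. No gene of the table (0%) passed an adjusted p of 0.05, and the smallest adjusted p was 0.507. The EtOH mice that this comparison used also took part in choosing the genes, so this comparison does not stand apart from the choice.

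EtOH-UA and Ctrl mice were then compared to see whether the genes differed from control levels when UA was given with alcohol. The Dbp mean differed from Ctrl by -11.7%, a log2 difference of -0.18 (95% interval -0.31 to -0.05, unadjusted p = 0.00917, adjusted p = 0.999 by limma, exact permutation p = 0.0234 over 11440 splits), and 6 of 7 mice were below the Ctrl median. Ciart differed by -0.18 (-0.31 to -0.04, unadjusted p = 0.0127, adjusted p = 0.999, exact permutation p = 0.0307), also with 6 of 7 mice below the Ctrl median. Nr1d1 differed by -0.12 (-0.25 to 0.01, unadjusted p = 0.0593, exact permutation p = 0.0858), with 7 of 7 below. Its unadjusted p in limma was under 0.05, from 0.0351 to 0.0453, without Ctrl mouse 144, 198 or 203 or EtOH-UA mouse 139, 142 or 178, while leaving out no single mouse took Dbp or Ciart above 0.05. The other 7 genes were between -0.08 for Per1 and 0.02 for Per2, with exact permutation p-values from 0.224 to 0.943. Thus 2 of 10 had an unadjusted p under 0.05, against 3.08% of all genes, and none survived adjustment over all genes, as was true of every gene tested (0%, smallest adjusted p 0.297, with 492 genes at an unadjusted p under 0.05). Of the 10 genes 7 were lower, against 48.8% of all genes. The Ctrl mice here are those of the comparison that chose the list, so this comparison does not stand apart from the choice either. Dbp and Ciart are the genes that chose it. Their p-values here, with all mice or with 1 left out, and the count of 2 of 10 therefore lend no separate support.

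**Figure D3:**
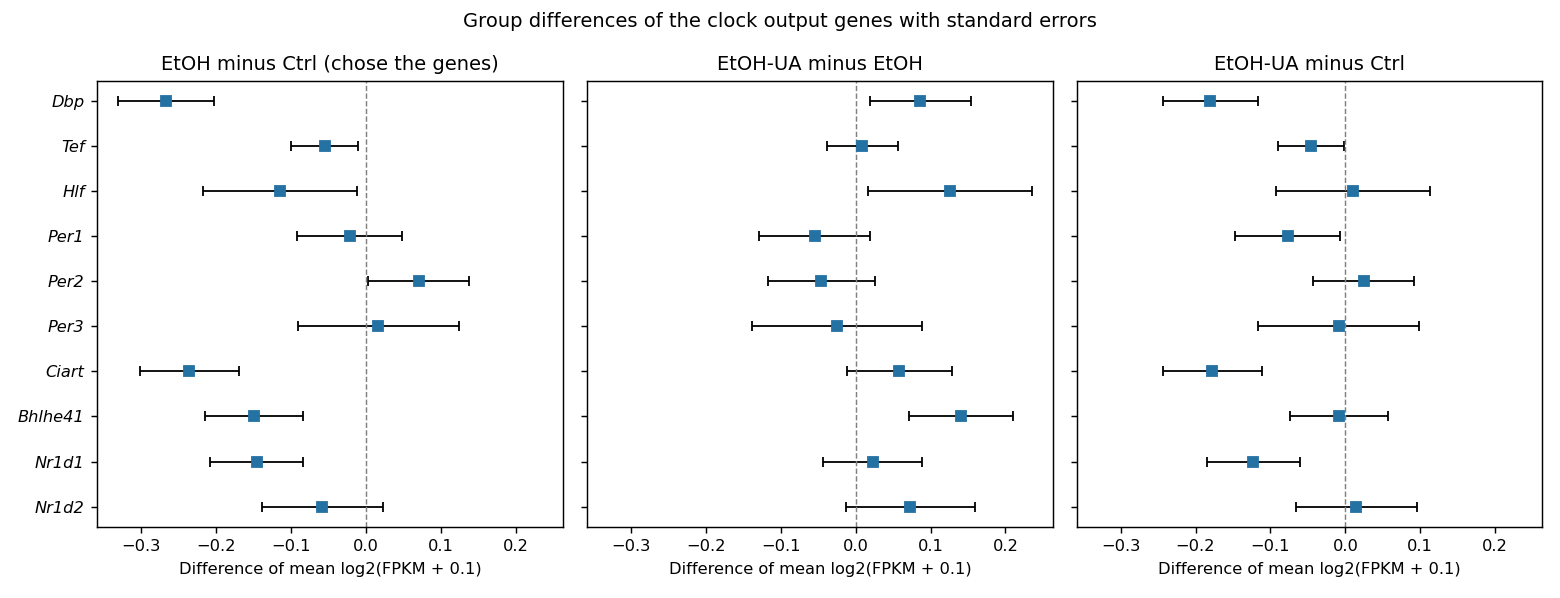
Differences of mean log2(FPKM + 0.1) between groups for the 10 clock output genes (squares) with standard errors from the limma fit (bars), for EtOH minus Ctrl, EtOH-UA minus EtOH and EtOH-UA minus Ctrl. Dbp and Ciart lie at -0.27 and -0.24 in the first panel, the contrast that chose the genes, at 0.09 and 0.06 in the second and at -0.18 and -0.18 in the third.

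Dbp moved opposite to markers of the ependyma, the ciliated lining of the ventricles. All 5 of these markers (Foxj1, Ccdc153, Tmem212, Rsph1 and Dynlrb2) were higher in the EtOH than in the Ctrl group at an unadjusted p under 0.05, against 3.05% of all genes in either direction. None of them passed adjustment over all genes (adjusted p = 0.999 by limma for each). Their summed FPKM was 3.78 to 13.3 in Ctrl (median 7.58), 9.98 to 21.5 in EtOH (13.6) and 3.5 to 20.9 in EtOH-UA mice (14.1). None of the 5 was at 0 in any mouse, and all were low beside the neuronal markers. Across the 23 mice, after group means were removed, Dbp had r = -0.79 with the mean of these markers (permutation p = 0.00013, adjusted p = 0.00234 over 90 relations, rho = -0.70, permutation p = 0.00067). Without the 2 mice farthest in Dbp, r was -0.67, and within groups it was -0.89 among Ctrl mice, -0.35 among EtOH mice and -0.83 among EtOH-UA mice. EtOH-UA mouse 141, the highest of its group in Dbp, was the lowest of all EtOH-UA mice in ependyma markers. With the markers as a covariate the EtOH minus Ctrl log2 difference of Dbp was -0.13 in place of -0.27 and that of Ciart -0.14 in place of -0.24, while that of Nr1d1 was -0.18. In the same fit the EtOH-UA minus Ctrl differences of Dbp and Ciart were -0.09 (unadjusted p = 0.0659) and -0.12 (unadjusted p = 0.0765 by limma), and that of Nr1d1 was -0.14 (unadjusted p = 0.0408). The same Ctrl mice took part in choosing the genes, so these p-values lend no separate support. The part of such tissue in these differences was not tested further.

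Choroid plexus markers were also related to Dbp (r = -0.58, permutation p = 0.00755, adjusted p = 0.0400, rho = -0.57 with permutation p = 0.00888, and -0.60 without the 2 farthest mice), with r of -0.48, -0.50 and -0.76 within Ctrl, EtOH and EtOH-UA mice. All 6 of these markers were higher in the EtOH than in the Ctrl group, 1 of them (Clic6) at an unadjusted p under 0.05, and their sums ran from 7.75 to 2971 FPKM among Ctrl mice, 69.2 to 5749 among EtOH mice and 15.9 to 7807 among EtOH-UA mice. With log2 Ttr, the most abundant of them, as a covariate the EtOH minus Ctrl difference of Dbp was -0.20 and that of Ciart -0.20. In that fit the EtOH-UA minus Ctrl differences were -0.14 for Dbp (unadjusted p = 0.0205 by limma) and -0.16 for Ciart (0.0268). With the length slope as a covariate they were -0.20 (unadjusted p = 0.00252 by limma) and -0.18 (0.00959). Dbp and Ciart were chosen for low values against the same Ctrl mice, so the p-values of both fits lend no separate support. Few markers of other regions and cells had an unadjusted p under 0.05 between EtOH and Ctrl mice. Over all genes 3.05% had one in this comparison, 51.4% were lower in EtOH mice, and none passed adjustment. Higher means in EtOH mice were seen for 6 of 6 markers of thalamus and septum, 4 of 4 of oligodendrocytes, 3 of 4 of astrocytes, 5 of 5 of blood, 2 of 5 of striatum, 1 of 4 of microglia, 0 of 4 of endothelium, 4 of 8 of hippocampal neurons and 2 of the 4 suprachiasmatic markers tested, and 1 of all these, the striatal marker Adora2a, was lower at an unadjusted p under 0.05 in limma (0.44 against 0.608 FPKM, unadjusted p = 0.00554). Against Ctrl mice, 5 of 5 blood markers had a higher mean in the EtOH-UA group, while 48.8% of all genes were lower. Of the 5, 4 (Hba-a2, Hbb-bs, Hbb-bt and Alas2) had an unadjusted p under 0.05, against 3.08% of all genes, and none passed adjustment. Also higher there at that level were the astrocyte marker Gfap (121 against 103 FPKM, unadjusted p = 0.0092 by limma), the hippocampal neuron marker Wfs1 (33.8 against 27.4 FPKM, 0.0161), the striatal marker Ppp1r1b (29.5 against 24.4 FPKM, 0.0231) and the thalamic marker Tcf7l2 (1.48 against 1.21 FPKM, 0.0245). Between EtOH-UA and EtOH mice the endothelial marker Ly6c1 was higher (30.1 against 25.7 FPKM, unadjusted p = 0.0199 by limma). For Nr1d1 r with the ependyma markers was 0.19 (permutation p = 0.434, rho = 0.18), with within-group values of 0.19, 0.05 and 0.24.

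The rest of the clock machinery was counted from a list. Of 22 other clock genes, 9 were higher and 13 lower in the EtOH than in the Ctrl group, and 51.4% of all genes were lower. The median log2 difference was -0.01, against -0.003 over all genes. Of the 22, 0 had an unadjusted p under 0.05 in limma, against 3.05% of all genes. Arntl, which encodes BMAL1, was at 11.5 ± 0.998 (SD, n = 7) FPKM in EtOH and 11.6 ± 0.883 (n = 9) in Ctrl mice. Clock was at 13.2 ± 1.98 and 12.3 ± 1.30 FPKM, and Cry1, a partner of the Period proteins, at 4.99 ± 0.188 and 4.75 ± 0.416 FPKM. Bhlhe40, the paralogue of Bhlhe41, had a difference of -0.15 ± 0.09 (SE, unadjusted p = 0.115 by limma), equal to that of Bhlhe41. In EtOH-UA against EtOH mice 10 of the 22 were higher and 12 lower, and 48.8% of all genes were lower. None (0) had an unadjusted p under 0.05 there, against 3.27% of all genes. Between EtOH-UA and Ctrl mice 9 were higher and 13 lower, and 48.8% of all genes were lower.

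Lists of genes that respond to the clock or reset it were examined beside the members. Of 13 clock-responsive genes, among them Wee1, Nampt and Por, 9 were lower in the EtOH than in the Ctrl group, against 51.4% of all genes. Of the 13, 0 had an unadjusted p under 0.05 in limma, against 3.05% of all genes. In EtOH-UA against EtOH mice 10 of the 13 were higher, and 48.8% of all genes were lower. Cys1 was higher in the EtOH-UA than in the EtOH group (6.43 against 5.34 FPKM, log2 difference 0.27 ± 0.12 SE, unadjusted p = 0.0267 by limma). Of 11 immediate early genes, which neuronal activity induces together with Per1, 9 were lower in EtOH mice, 1 of them, Fosb, at an unadjusted p of 0.0378 (1.13 against 1.34 FPKM). Of 10 glucocorticoid-responsive genes 0 had an unadjusted p under 0.05 in EtOH against Ctrl mice, and Mt1, a metallothionein, was higher in the EtOH-UA than in the EtOH group (222 against 189 FPKM, unadjusted p = 0.0284), as was Cdkn1a in EtOH-UA against Ctrl mice (3.84 against 3.02 FPKM, unadjusted p = 0.0263). Of 9 temperature-responsive genes, Cirbp and Rbm3 included, 0 had an unadjusted p under 0.05 in any of the 3 comparisons. Over all genes the share was 3.05% in EtOH against Ctrl, 3.27% in EtOH-UA against EtOH and 3.08% in EtOH-UA against Ctrl mice. None of these genes passed adjustment over all genes.

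From mouse to mouse within groups, the 10 genes varied to different degrees. Tef was among the steadiest genes of the hippocampus, with an SD of 0.08 on the log2 scale, the 5.63rd percentile of 12904 genes of at least 1 FPKM. Dbp, Ciart, Nr1d1, Bhlhe41 and Per2 had SDs of 0.12 to 0.13, between the 27.7th and the 31.2nd percentile. Hlf and Per3 were the most variable, at 0.22 each and the 72.1st and 74.2nd percentile. For Dbp the SD equalled 9.26%, against a counting error of 3.25% from an estimated 948 fragments per mouse. The depth behind these errors, 16.9 fragments per kilobase at 1 FPKM (quartiles 16.3 and 17.6), was itself estimated from the value steps of 112 low genes.

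Deviations from group means were then set against each other to see whether the genes moved together between mice. Of 45 pairs, 40 had a positive r, 12 had a permutation p under 0.05, and 11 kept an adjusted p under 0.05. How often pairs of genes outside the list reach such values, before or after removal of the length slope, was not measured. These counts therefore cannot tell whether the listed genes moved together more than other genes do. Hlf was in 4 of the 11, with Bhlhe41 (r = 0.71, permutation p = 0.0005, adjusted p = 0.0075, rho = 0.61 with permutation p = 0.00361), with Nr1d2 (r = 0.71), with Per1 (r = 0.70) and with Per3 (r = 0.66). The 3 Period genes were related to each other, Per1 with Per2 at r = 0.67 (permutation p = 0.00462, adjusted p = 0.0297, rho = 0.53 with permutation p = 0.00929), and r for that pair was 0.48 without Ctrl mouse 199 and EtOH-UA mouse 137. Without EtOH-UA mouse 137 alone it was 0.40 (permutation p = 0.107). The count of 11 pairs was 4 without EtOH-UA mouse 137, 7 without EtOH-UA mouse 178 and 6 with Spearman's rho.

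Dbp had an adjusted p under 0.05 with 1 other member, Ciart, at r = 0.58 (permutation p = 0.00933, adjusted p = 0.0382 over 45 pairs). Its rho was 0.41 (permutation p = 0.0609), r was 0.48 without Ctrl mouse 198 and EtOH-UA mouse 141, and within groups it was 0.37 among Ctrl mice, 0.26 among EtOH mice and 0.89 among EtOH-UA mice. Leaving out EtOH-UA mouse 141 alone gave r = 0.37, so the relation rested largely on that mouse, and it was 0.30 (permutation p = 0.165) with ependyma markers as a covariate. Dbp and Nr1d1, both low in EtOH mice, had r = 0.31 (permutation p = 0.185), which was 0.76 (permutation p = 6e-05) with ependyma markers as a covariate, and Dbp and Per3 r = -0.34 (permutation p = 0.157). None of the pairs of Dbp kept an adjusted p under 0.05 once the length slope described next was removed, although r was then 0.51 with Per1 (adjusted p = 0.116) and 0.47 with Nr1d1 (adjusted p = 0.126).

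**Figure D4:**
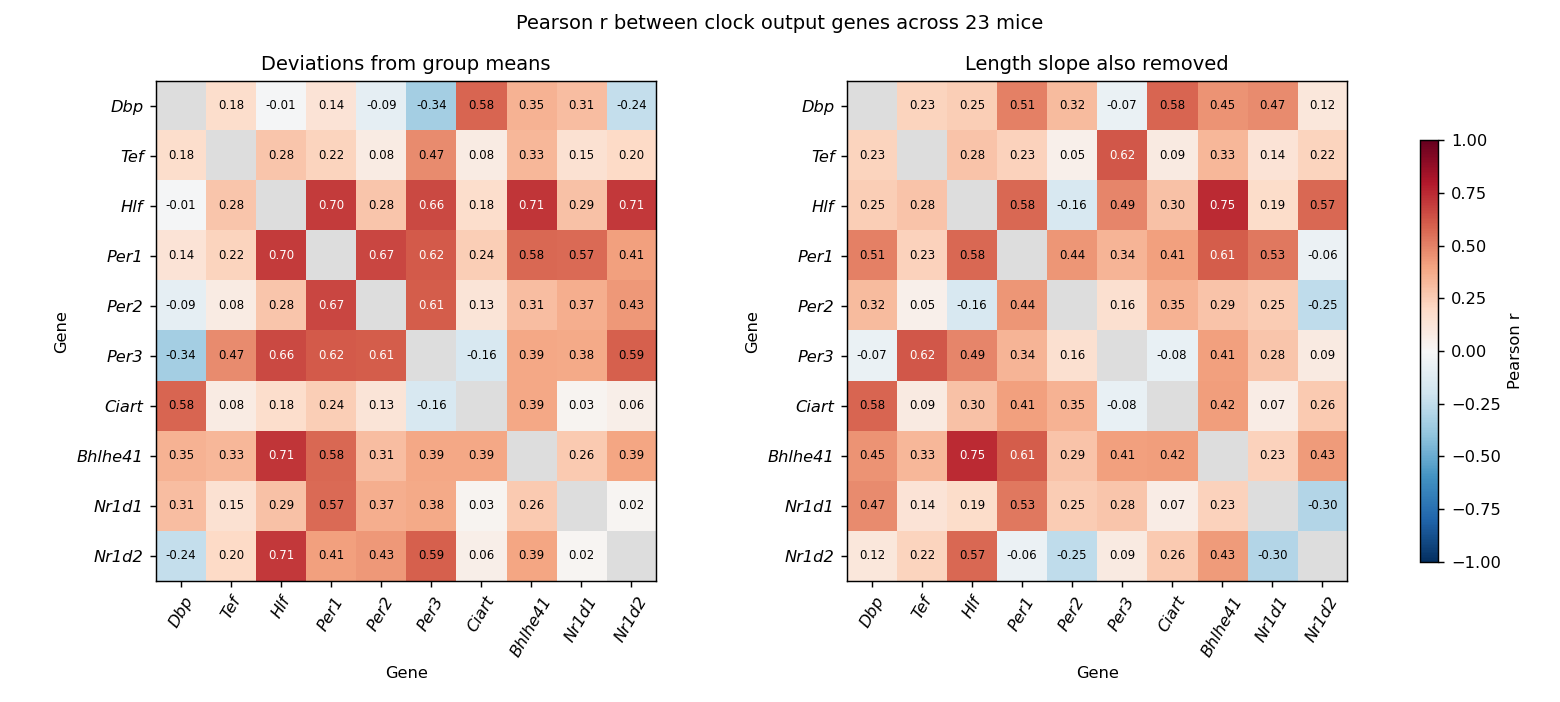
Pearson r for each pair of the 10 clock output genes over 23 mice, from log2(FPKM + 0.1) with group means removed (left) and with the length slope also removed (right). Before removal 11 of 45 pairs had an adjusted p under 0.05, with r up to 0.71, and after it 1 pair, Hlf with Bhlhe41 at r = 0.75.

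Several of the genes moved with the length slope, a measure of how libraries favour long or short transcripts, but removing it left the pairs at a median r of 0.28, against 0.31 before, with 39 of 45 positive. Nr1d2 (r = 0.76, permutation p = 1e-05, the smallest the 100000 permutations can give, adjusted p = 0.0009), Per3 (r = 0.73, adjusted p = 0.00935) and Per2 (r = 0.72, adjusted p = 0.00935) were related to it, and all 3 have transcripts of 4663 to 5999 bases. Bhlhe41 and Tef, with transcripts of 6133 and 4403 bases, had no adjusted p under 0.05 with the slope. For Per2 rho was 0.42 (permutation p = 0.0507), and without Ctrl mouse 135 and EtOH-UA mouse 137 r was 0.47. Dbp, of 1837 bases, had r = -0.41 with the slope (permutation p = 0.0789, adjusted p = 0.222). With the slope removed 12 pairs still had a permutation p under 0.05, but only Hlf with Bhlhe41 kept an adjusted p under 0.05 (r = 0.75, permutation p = 0.00013, adjusted p = 0.00585, rho = 0.72), with r of 0.88, 0.73 and 0.55 within Ctrl, EtOH and EtOH-UA mice. The relation of Per3 with the temperature-responsive list was r = -0.81 before (permutation p = 6e-05, adjusted p = 0.0021, rho = -0.76) and -0.49 after removal (permutation p = 0.0336, adjusted p = 0.205).

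Per1 followed the immediate early genes. The r of Per1 with the mean of the 11 genes, Fos, Egr1, Npas4 and Arc among them, was 0.73 (permutation p = 0.00011, adjusted p = 0.00234 over 90 relations, rho = 0.68 with permutation p = 0.00041). With the length slope removed it was 0.80 (permutation p = 2e-05, adjusted p = 0.0014 over 70 relations, rho = 0.76), with 0.87 among Ctrl mice, 0.55 among EtOH mice and 0.83 among EtOH-UA mice and 0.71 without the 2 farthest mice. In that set of 70, the only other relation with an adjusted p under 0.05 was Dbp with the ependyma markers (r = -0.74, permutation p = 0.00058, adjusted p = 0.0203, rho = -0.64, and within groups -0.85, 0.15 and -0.85).

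**Figure D5:**
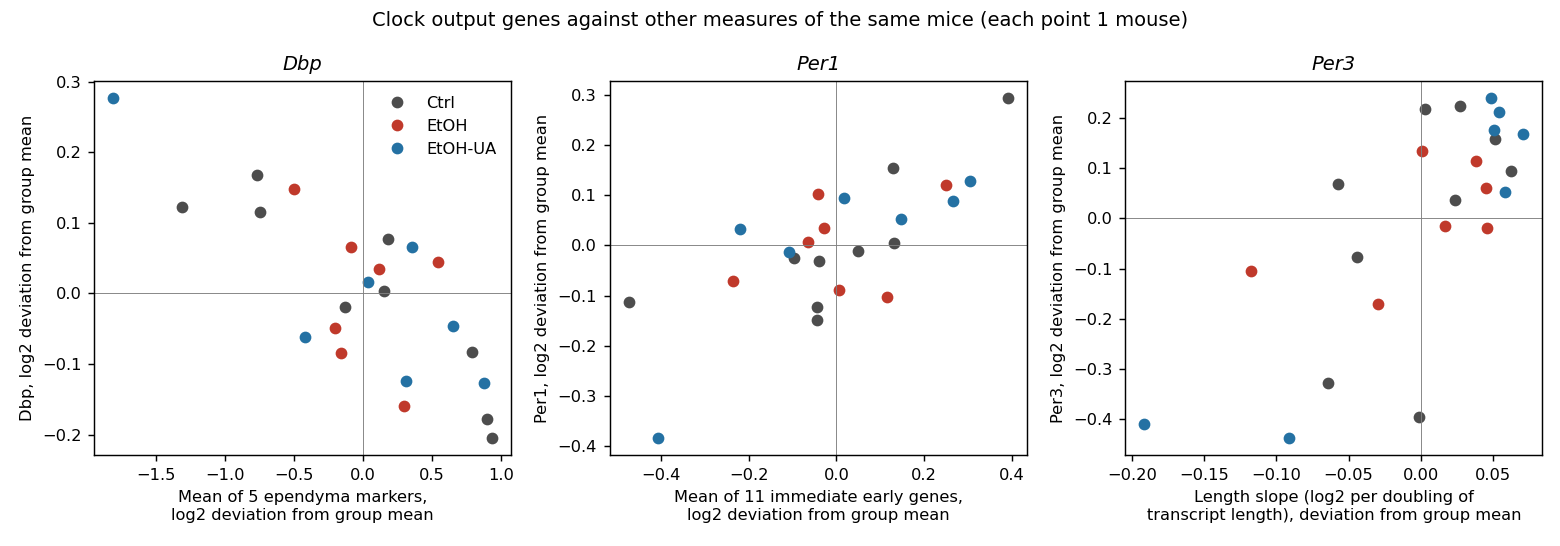
Log2 deviations from group means in 23 mice (points, by group) of Dbp against the mean of 5 ependyma markers, Per1 against the mean of 11 immediate early genes, and Per3 against the length slope. Dbp is lower where the ependyma markers are higher (r = -0.79), Per1 is higher where the immediate early genes are (r = 0.73), and EtOH-UA mice 137 and 141 lie at the lower left for Per3 (r = 0.73).

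Relations with the other clock genes numbered 220, of which 21 had an adjusted p under 0.05. The share of such relations among genes outside the clock was not measured. Nr1d2 was in 9 of the 21, with Gsk3b (r = 0.81, permutation p = 1e-05, adjusted p = 0.0022) and Clock (r = 0.77, adjusted p = 0.0132) the closest. Bhlhe41 moved with its paralogue Bhlhe40 (r = 0.72, permutation p = 0.00028, adjusted p = 0.0205, rho = 0.67, r from 0.59 to 0.85 within the 3 groups). Nr1d1 moved with Cry2 (r = 0.68, permutation p = 0.00095, adjusted p = 0.0299, rho = 0.73, r from 0.43 to 0.86 within groups). For Dbp the single relation was with Csnk2a1, a kinase subunit, at r = -0.66 (adjusted p = 0.0299), and r with Arntl was -0.02.

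Among 12894 genes of at least 1 FPKM outside the list, those with deviations most like Dbp were Lxn (r = 0.84), Ssbp3 (0.82), Mgst3 (0.81), Fndc4 (0.81), Nr2e1 (0.79) and AU021092 (0.79). The most opposed were Pwwp2a (r = -0.88), Zbtb1 (-0.81), Ibtk (-0.80), Spef2 (-0.78), Cfap126 (-0.77) and Il1rap (-0.77). None of the 12 was a clock gene of the lists used here. All 12 kept an r of the same sign and at least 0.71 in size with the length slope removed. These are likenesses over 23 mice that share library depth and tissue make-up, given with no test.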

How the data were processed

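RNA of the hippocampus of 23 mice was sequenced. The authors deposited 1 table of FPKM per gene and mouse, in 2 decimals, with a column for each of the 23 mice. According to the labels and methods, reads were aligned with Bowtie2 and quantified with RSEM (RSEM 1.2.8, Bowtie2 2.2.5 and HISAT2 2.1.0 in the submitters' processing notes, other versions in the methods) on mm10. The input was poly(A)+ RNA by the methods and total RNA by the labels. Library totals were not used here, so depth was estimated from the steps between low FPKM values, and precision follows from it as counting error only. The FPKM scale makes each gene's value depend on the rest of the library.

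The 10 genes and all gene lists were chosen with earlier results of these data known. Values were tested as log2(FPKM + 0.1), which understates changes of low genes, with limma 3.58.1 (R 4.3.3) in 1 trend model of the 3 groups over the 15986 genes averaging 0.1 FPKM or more, and Benjamini-Hochberg adjustment. The count test of the study's methods needs read counts and was not used. For single genes the exact permutation test, two-sided, was applied to mean log2 values. For relations across mice, group means were removed and labels permuted 100000 times within groups, and the 2 mice left out were those farthest from the median of the first gene. The length slope was fitted on the longest GENCODE transcript, available for 96.7% of genes tested. Promoters came from RefSeq tables of GRCm38.p6. Scripts were tested on simulated data and run with Python 3.11.15, numpy 2.4.6, pandas 2.3.3, scipy 1.17.1 and matplotlib 3.10.9. Groups came from the labels; replicates are separate mice. Named beyond the 10 genes were list members with an unadjusted p under 0.05, up to 4 well known ones a list, all 5 ependyma markers, members of the strongest relations, and the 6 genes most and 6 least like Dbp. The clock-responsive and glucocorticoid lists share Fkbp5, Tsc22d3 and Sgk1. The result of 1 gene of the other clock list is not reported here. Other pseudocounts, filters, scalings, variance estimates, groups in the fit and left-out mice were tried, and covariates were added after seeing the data.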

Additional observations from a re-analysis of the deposited data

Results flagged for a closer look

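Both flagged values came from EtOH-UA mouse 137, the mouse with the highest summed FPKM and the steepest length slope. Its Per1 level was 10.44 FPKM against 13.53 in the next lowest mouse of the group, a gap of 0.723 of the group's range where 0.568 is the limit for 7 mice. Its Per2 level was 5.35 FPKM against 6.84 in the next, a gap of 0.697 of the range. Of 30 sets of values examined in this way (10 genes in 3 groups), chance at 1 in 20 gives 1.5. The part of the library in these values was not tested.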

How the results depend on the processing

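No paired analysis was possible because the columns carry mouse numbers and no replicate numbers. Of 700 alternatives for differences of single members in the comparisons with a test, 47 turned the sign, 16 brought an unadjusted p under 0.05 and 2 took one above it. The differences that turned were no larger in the reported fit than that of Per1, -0.055, between EtOH-UA and EtOH mice. Of 350 in EtOH against Ctrl, 8 turned the sign, 7 for Per3 and 1 for Per1 (0.015 without Ctrl mouse 199). Of 224 for 7 pairs of members, none turned the sign of r, 2 brought a permutation p under 0.05 and 8 took one above it, 4 of these for Dbp with Ciart. Covariates and the fit without EtOH-UA mice 137 and 141 were chosen after seeing the data.

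With ependyma markers as a covariate, the log2 difference was 0.032 for Per3 (EtOH-UA minus EtOH), and -0.011 for Per2, -0.0059 for Nr1d2 and 0.026 for Bhlhe41 (EtOH-UA minus Ctrl). Over all genes 1 then passed adjustment in EtOH-UA against Ctrl, 0 of 22 other clock genes had an unadjusted p under 0.05 there, and r of Dbp with Ciart was 0.30. With the length slope as a covariate, the EtOH-UA minus EtOH difference was 0.016 for Per2 and 0.083 for Per3, that of Per3 against Ctrl was 0.043, 1 other clock gene had an unadjusted p under 0.05 in EtOH-UA against EtOH, and 1 pair of members remained past adjustment. With log2 Ttr, Bhlhe41 differed by 0.015 from Ctrl in EtOH-UA mice. Other clock genes at an unadjusted p under 0.05 in EtOH-UA against Ctrl numbered 0 with log2 Ttr, 0 with no filter, 0 with upper-quartile scaling and 2 with quantile normalization, and 1 in EtOH against Ctrl with only the groups compared. The EtOH-UA minus EtOH difference of Tef was -0.011 with upper-quartile scaling and -0.042 with quantile normalization, which also gave -0.0033 for Nr1d1. Without EtOH-UA mice 137 and 141, the differences against EtOH were 0.011 for Per1, 0.011 for Per2 and 0.14 for Per3, those against Ctrl 0.16 for Per3 and 0.0090 for Bhlhe41, 1 other clock gene had an unadjusted p under 0.05 in EtOH against Ctrl and 1 in EtOH-UA against EtOH, 3 pairs passed adjustment, and r of Dbp with Ciart was 0.37. Spearman's rho gave 6 pairs and 0.41 for Dbp with Ciart.

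Genes at an unadjusted p under 0.05 in EtOH against Ctrl numbered 487 in the reported fit, 248 with a filter at a mean of 1 FPKM, 294 with log2 Ttr, 316 without EtOH mouse 47 and 938 without EtOH mouse 189. In EtOH-UA against EtOH they numbered 523, and 307 without EtOH-UA mouse 137, 994 without EtOH-UA mouse 139 and 1241 without EtOH mouse 189. In EtOH-UA against Ctrl they numbered 492, and 1097 with ependyma markers, 870 with the length slope and 981 without EtOH-UA mice 137 and 141.

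Leaving out each mouse in turn gave 0 to 1 genes past adjustment in each comparison. Other clock genes numbered 0 to 1 in EtOH against Ctrl and in EtOH-UA against EtOH, and 0 to 3 in EtOH-UA against Ctrl. The EtOH-UA minus EtOH differences ran from -0.076 to 0.0092 for Per1, -0.072 to 0.015 for Per2, -0.065 to 0.048 for Per3, -0.0091 to 0.060 for Nr1d1 and -0.0089 to 0.031 for Tef. The EtOH-UA minus Ctrl differences ran from -0.0044 to 0.086 for Per2, -0.058 to 0.064 for Per3, -0.031 to 0.063 for Nr1d2, -0.045 to 0.062 for Hlf and -0.037 to 0.027 for Bhlhe41. Pairs past adjustment numbered 4 to 12, and r of Dbp with Ciart was 0.37 to 0.66. For the differences of Dbp and Ciart the range was -0.29 to -0.24 and -0.26 to -0.21 in EtOH against Ctrl, and -0.23 to -0.16 and -0.24 to -0.15 in EtOH-UA against Ctrl.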
